A study of Rattus norvegicus with 28 samples.

Results

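The RNA levels of 10 genes of the blood vessel wall were followed in the hippocampus of rats 24 h after traumatic brain injury (TBI), with and without an antidepressant. These genes were chosen by name and comprise 3 tight junction genes (Cldn5, Ocln and Tjp1), 2 genes of endothelial identity (Pecam1 and Vwf), 3 adhesion receptor genes (Icam1, Vcam1 and Selp) and 2 angiogenic factor genes (Vegfa and Angpt2). They had 15 probes among the 30367 non-control probes of the array, on which 15637 genes could be named, and 8 of the 10 genes, with 12 probes, were bright enough to be tested. The rats were adult male Sprague-Dawley animals weighing 350 to 400 g. Sham rats (n = 2) had no fluid-percussion injury, TBI rats (n = 3) had a severe parasagittal one, and the remaining groups had the same injury and, 1 h after it, imipramine (TBI+Imipramine, n = 3), fluoxetine (TBI+Prozac, n = 3) or sertraline (TBI+Zoloft, n = 3). Imipramine is a tricyclic antidepressant, and fluoxetine and sertraline are selective serotonin reuptake inhibitors. Per the study's methods, the 3 drugs were injected intraperitoneally at the same dose and the rats not given a drug received vehicle.

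Endothelial cells of brain vessels are sealed to each other by tight junctions, whose strands are built by claudin-5 and occludin and tied to the cytoskeleton by zonula occludens proteins, and this seal is the core of the blood-brain barrier. When the vessel wall is activated by inflammatory signals it displays receptors that catch leukocytes: P-selectin lets them roll, and ICAM-1 and VCAM-1 hold them firmly. VEGF-A loosens junctions and drives vessel growth, and angiopoietin-2 makes vessels responsive to it. Several of these genes are also used outside the endothelium, for example Icam1 in microglia, Vegfa in astrocytes and Pecam1 in platelets and leukocytes. In whole hippocampus a lower level can mean fewer cells of a type or less RNA per cell, and these cannot be told apart.

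The promoters of 6 of the 10 genes (Cldn5, Ocln, Tjp1, Icam1, Vcam1 and Vegfa) were found in the RefSeq table of the rat assembly GRCr8. The windows of Icam1 and Vcam1 are shown because both genes encode endothelial receptors that are textbook targets of the transcription factors NF-kappaB and, for Icam1, STAT, yet they gave unlike values here. Each window holds the 250 bases before the annotated start, 5′ to 3′ on the gene's strand, at chr8:27829595-27829844 (plus strand) for Icam1 and chr2:206742784-206743033 (minus strand) for Vcam1. Capitals mark matches, on either strand, to the kappaB-type motif GGNNNTTCC or the STAT-type motif TTCNNNGAA.
Icam1: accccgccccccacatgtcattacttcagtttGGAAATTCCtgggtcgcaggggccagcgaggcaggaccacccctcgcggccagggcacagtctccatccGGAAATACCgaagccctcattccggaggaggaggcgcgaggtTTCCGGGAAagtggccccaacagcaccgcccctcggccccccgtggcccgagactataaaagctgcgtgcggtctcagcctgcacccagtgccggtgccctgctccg
Vcam1: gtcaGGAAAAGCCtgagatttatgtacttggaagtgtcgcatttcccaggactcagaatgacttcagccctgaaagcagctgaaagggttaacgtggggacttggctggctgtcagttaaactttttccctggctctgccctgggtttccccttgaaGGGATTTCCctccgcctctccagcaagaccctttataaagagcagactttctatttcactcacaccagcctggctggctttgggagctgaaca
Icam1 held kappaB-type matches at -218 to -210 and -149 to -141 and a STAT-type match at -107 to -99, counted from the start, and Vcam1 held kappaB-type matches at -246 to -238 and -93 to -85. The marked matches did not overlap each other. Among all 33469 rat promoters of the same length 15.4% held a kappaB-type and 7.67% a STAT-type match, and of the 6 promoters found here 3 (Icam1, Vcam1 and Tjp1) held a kappaB-type one. The motifs were picked after the values of the genes were known, and a match is a description of the letters, not a bound site.

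A level is log2 of a probe's signal after division by its own array's 75th percentile (taken over probes brighter than background), so 0 is the level of that percentile, -1 is a level 2-fold lower, and levels of different probes cannot be compared with each other. A difference is the difference of 2 group means on that scale, and it is said to have passed when limma's adjusted p (Benjamini-Hochberg over all 17322 probes tested) was under 0.05. The 14 arrays had 14676 to 18196 of the probes above background. The 3 TBI arrays and TBI+Prozac replicate 1 shared a slide, and the other 8 drug arrays shared a second slide. Both Sham arrays were alone on another slide and were scanned on another day than all arrays of injured rats. In every comparison with Sham the slide, the scan day and the injury therefore cannot be told apart. Of 8 hippocampal neuron marker genes 7 were bright enough to be tested, and Prox1, the dentate granule cell marker, was not above background on any of the 14 arrays. Nothing in the labels says more about separate animals than the sample names do, and p-values measure the spread between these samples.

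Injury was accompanied by more Cldn5 and Icam1 RNA and less Ocln RNA. Of the 8 tested genes 3 passed in TBI against Sham, beside 16.6% of all probes, and 5 of 8 had groups that did not overlap, beside 42.3% of all probes. The counts are small, and all 3 calls depended on single arrays, as given for each gene.

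**Figure D1:**
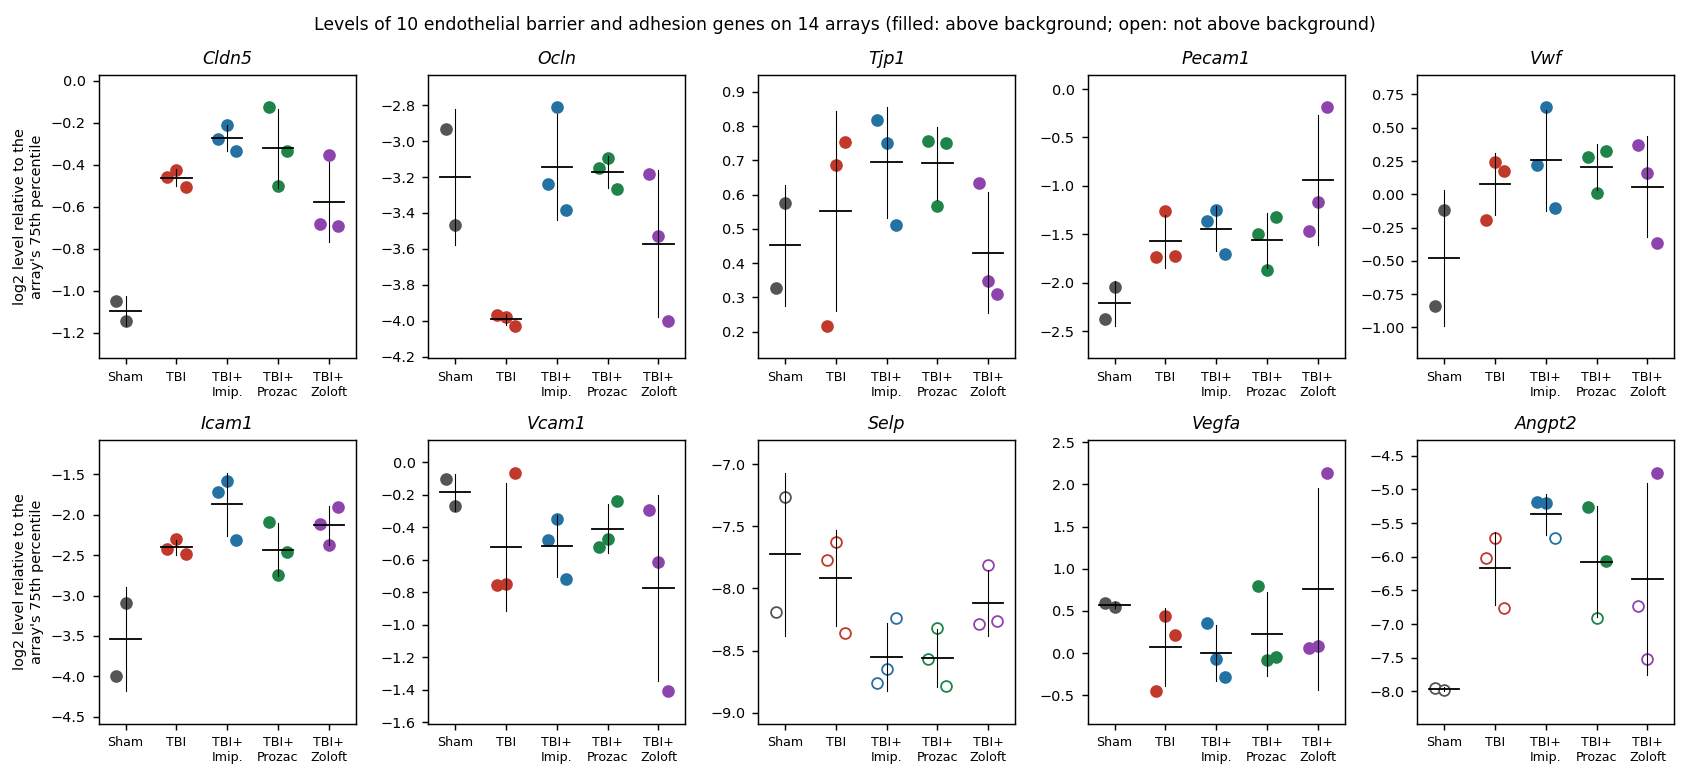
Level of each of the 10 genes (y axis, log2 relative to the array's 75th percentile, a separate scale in each panel) on each array by group (x axis, Imip. for imipramine); filled points were above background and open points were not, horizontal lines are group means and vertical lines 1 SD. The TBI arrays of Ocln lie between -4.03 and -3.97, below both Sham arrays, those of Cldn5 and Icam1 lie above both Sham arrays, and Selp is open on all 14 arrays.

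Cldn5 encodes claudin-5, the claudin that forms most of the strands of brain endothelium. Its level was -1.05 and -1.15 in the Sham rats and -0.46, -0.42 and -0.50 in the TBI rats. The levels were -0.27, -0.21 and -0.33 with imipramine, -0.13, -0.50 and -0.33 with Prozac and -0.68, -0.35 and -0.69 with Zoloft. Every injured rat was above both Sham rats, and the drug groups lay around the TBI group. Cldn5 rose in TBI by 0.63 (SE 0.15, 1.55-fold, adjusted p = 0.012), in TBI+Imipramine by 0.82 (adjusted p = 0.0022) and in TBI+Prozac by 0.78 (adjusted p = 0.0058) against Sham, while the difference of TBI+Zoloft, 0.52, did not pass (adjusted p = 0.057). These comparisons share the 2 Sham arrays. The 3 rats given imipramine lay above the 3 TBI rats, and no drug difference from TBI passed (0.19, 0.14 and -0.11 for imipramine, Prozac and Zoloft, adjusted p 0.43 to 0.74). The median of all probes was also 0.20 higher in TBI+Imipramine and 0.15 higher in TBI+Prozac than in TBI. Relative to that median Cldn5 differed by -0.010 and -0.005. In order of their means the groups were Sham, TBI+Zoloft, TBI, TBI+Prozac and TBI+Imipramine, and no neighbouring groups among the injured were set apart by a test. The TBI call was lost without Sham replicate 1 or replicate 2 (0.68 and 0.58, highest adjusted p 0.093), and the calls of imipramine and Prozac held whichever array was left out.

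Ocln encodes occludin, a membrane protein of tight junctions that is also made by epithelia such as choroid plexus. Its level was -2.93 and -3.47 in Sham and -3.97, -3.98 and -4.03 in TBI. It was -3.24, -2.81 and -3.38 with imipramine, -3.15, -3.09 and -3.27 with Prozac and -3.18, -3.53 and -4.00 with Zoloft. The 3 TBI rats were close together (SD 0.031) and below both Sham rats, all rats given imipramine or Prozac lay above the TBI rats, and 1 of the 3 rats given Zoloft lay among them. Ocln fell by 0.79 in TBI against Sham (SE 0.24, adjusted p = 0.040). The difference was -0.52 without Sham replicate 1 and -1.06 without Sham replicate 2. The call held in the latter fit alone, and when a TBI array was left out the difference was -0.80 to -0.77 and did not pass (adjusted p 0.063 to 0.086).

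Against TBI, Ocln was higher by 0.85 in TBI+Imipramine (95% interval 0.39 to 1.31 before adjustment, adjusted p = 0.055) and by 0.82 in TBI+Prozac (0.36 to 1.28, adjusted p = 0.26), and the difference of TBI+Zoloft was 0.42 (-0.04 to 0.88, adjusted p = 0.38). None of these passed. The median of all probes was itself 0.20 higher in TBI+Imipramine and 0.15 higher in TBI+Prozac than in TBI, and relative to it Ocln differed by 0.65 and 0.68. The only drug array on the slide of the TBI rats, TBI+Prozac replicate 1, was 0.84 above their mean. With slide as a term the difference of imipramine was 0.88 with an SE of 0.40 (adjusted p = 0.78). Against Sham, Ocln differed by 0.06, 0.03 and -0.37 in the imipramine, Prozac and Zoloft groups, with intervals of -0.46 to 0.57, -0.48 to 0.55 and -0.89 to 0.15, and none passed.

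Tjp1 encodes ZO-1, the scaffold that links the strands to actin, and was measured by 2 probes. The brighter probe read 0.33 and 0.58 in Sham and 0.22, 0.68 and 0.75 in TBI, groups that overlapped (difference 0.10, SE 0.18, adjusted p = 0.76). Its range over all 12 injured rats was 0.22 to 0.82. The second probe read -4.17 and -4.23 in Sham, -3.96, -3.73 and -3.66 in TBI and -4.08, -4.14 and -4.22 with Zoloft. On this probe the Zoloft rats lay with the Sham rats and below all TBI rats, and the imipramine and Prozac rats, between -3.86 and -3.40, lay above Sham. The difference of the second probe from Sham was 0.42 in TBI (adjusted p = 0.099), and it passed in TBI+Imipramine (0.58, adjusted p = 0.023) and TBI+Prozac (0.64, adjusted p = 0.022). The median of all probes was itself 0.18 and 0.14 higher than Sham in these 2 groups. Relative to it the second probe differed by 0.39 and 0.50, beside 0.42 in TBI. Whether these 2 calls held when an array was left out was not tested. The difference of the second probe among the 3 drugs did not pass (F test, adjusted p = 0.065), nor did Zoloft against TBI (-0.36, adjusted p = 0.25).

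Pecam1 encodes CD31, an adhesion molecule at the contacts between endothelial cells. Its level was -2.37 and -2.05 in Sham and -1.73, -1.26 and -1.73 in TBI. It was -1.37, -1.25 and -1.71 with imipramine, -1.50, -1.87 and -1.32 with Prozac and -1.46, -1.16 and -0.19 with Zoloft. Every injured rat was above both Sham rats, and Zoloft replicate 3 was the highest of all. The difference of TBI from Sham was 0.64 (SE 0.32, adjusted p = 0.20) and did not pass. Pecam1 passed in TBI+Zoloft against Sham (1.27, 2.41-fold, adjusted p = 0.039), and without Zoloft replicate 3 that difference was 0.90 (adjusted p = 0.055). The call was also lost without Zoloft replicate 2 (1.38), Sham replicate 1 (1.11) or Sham replicate 2 (1.44), and it passed in 1 of the 5 fits that left out an array.

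Vwf encodes von Willebrand factor, the clotting glycoprotein stored in endothelial cells and platelets. The brighter of its 2 probes read -0.84 and -0.12 in Sham and -0.19, 0.24 and 0.18 in TBI, and over the drug groups it ranged from -0.36 to 0.65. The groups overlapped and the difference of TBI from Sham was 0.55 (SE 0.28, adjusted p = 0.20), with 0.19 without Sham replicate 1 and 0.91 without Sham replicate 2. The other probe read -1.91 and -1.37 in Sham and -0.87, -0.53 and -0.60 in TBI. On that probe the groups did not overlap and the difference passed (0.97, SE 0.29, 1.97-fold, adjusted p = 0.036). It also passed in TBI+Imipramine (0.92, adjusted p = 0.036) and TBI+Prozac (0.96, adjusted p = 0.041), not in TBI+Zoloft (0.57, adjusted p = 0.26). Relative to the median of all probes the imipramine and Prozac differences were 0.73 and 0.82. Whether those 2 calls held when an array was left out was not tested. The TBI call passed in 1 of the 5 fits that left out an array, the one without TBI replicate 1, and the difference ranged from 0.70 to 1.25. The probes of Vwf therefore gave the same direction and unlike calls.

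Icam1 encodes the receptor for leukocyte beta-2 integrins and showed the largest difference from Sham among the 8 tested genes in TBI. Its level was -3.99 and -3.09 in Sham and -2.42, -2.30 and -2.49 in TBI. It was -1.71, -1.58 and -2.31 with imipramine, -2.09, -2.75 and -2.46 with Prozac and -2.11, -2.38 and -1.91 with Zoloft. All 12 injured rats lay above both Sham rats, which were themselves far apart (SD 0.64). Icam1 rose in TBI by 1.14 (SE 0.29, 2.20-fold, adjusted p = 0.019), in TBI+Imipramine by 1.67 (3.19-fold, adjusted p = 0.0019), in TBI+Prozac by 1.11 (adjusted p = 0.024) and in TBI+Zoloft by 1.41 (adjusted p = 0.016), each against the same 2 Sham arrays. Without Sham replicate 1, the lower of them, the difference of TBI was 0.68 (adjusted p = 0.20), that of TBI+Prozac 0.66 and that of TBI+Zoloft 0.96, and none of these passed. The call of TBI was also lost without TBI replicate 2 (1.087) and that of TBI+Prozac without Prozac replicate 1 (0.94) or replicate 3 (1.12), while the call of TBI+Imipramine held whichever array of the comparison was left out. Against TBI the differences were 0.54, -0.03 and 0.27 for imipramine, Prozac and Zoloft (adjusted p 0.27 to 0.98), with an interval of -0.02 to 1.096 for imipramine.

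Vcam1, the endothelial ligand of the integrin VLA-4, did not move with Icam1. Its level was -0.10 and -0.27 in Sham, -0.75, -0.75 and -0.06 in TBI and -1.41 in Zoloft replicate 3, the lowest of all 14 rats. The other rats given a drug ranged from -0.72 to -0.24. The difference of TBI from Sham was -0.34 (SE 0.29, 95% interval -0.97 to 0.30, adjusted p = 0.47), and TBI replicate 3 lay above both Sham rats. It was -0.56 without that rat and -0.22 without TBI replicate 1 or TBI replicate 2. Selp, the gene of P-selectin, was not above background on any of the 14 arrays, so no level or difference is given for it.

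Vegfa had 4 probes, which were not alike. The brightest read 0.59 and 0.55 in Sham, -0.45, 0.44 and 0.21 in TBI, 0.36, -0.07 and -0.29 with imipramine, 0.79, -0.08 and -0.05 with Prozac, and 0.06, 0.08 and 2.14 with Zoloft. The TBI rats lay below the Sham rats, and Zoloft replicate 3 was far above every other rat. The difference of TBI from Sham was -0.50 (SE 0.53, adjusted p = 0.57) on this probe (-0.69 to -0.24 when an array was left out, the nearest to 0 without TBI replicate 1) and 0.08 on the second, and neither passed. The third was above background on none of the Sham arrays and 2 of the 3 TBI arrays, so no difference is given for it. The fourth probe was too dim to be tested. In the Zoloft group the mean of the brightest probe was 0.76 with replicate 3 and 0.07 without it, and the difference from TBI was 0.69 and 0.003.

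Angpt2, the gene of angiopoietin-2, was above background in none of the Sham or TBI rats, in 2 of 3 rats given imipramine, 2 of 3 given Prozac and 1 of 3 given Zoloft. The signals of the 5 arrays above background ranged from -6.06 to -4.75, the highest in Zoloft replicate 3. Because no group had it above background on every array, it was not among the genes tested. The alternative without the filter on dim probes did fit it, but to Sham and TBI signals that were not above background, so no difference is given.

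**Figure D2:**
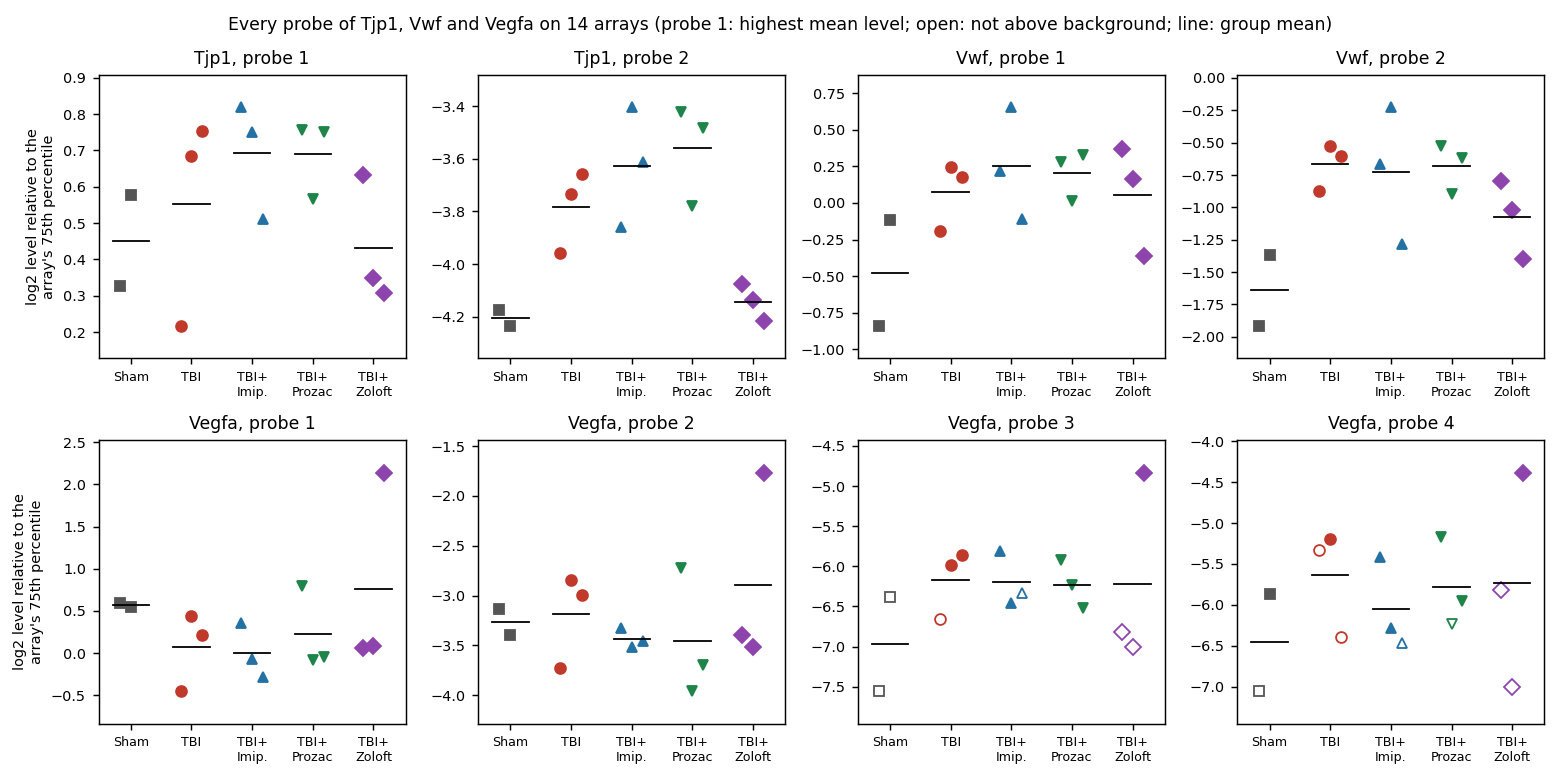
Level of each probe of Tjp1, Vwf and Vegfa (y axis, log2 relative to the array's 75th percentile) on each array by group; open symbols were not above background and lines are group means. The Zoloft rats lie with the Sham rats on the second Tjp1 probe, and Zoloft replicate 3 is the highest array on all 4 Vegfa probes.

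Zoloft replicate 3 thus stood apart from the other 13 rats in several of the genes: highest for Vegfa, Pecam1 and Angpt2, lowest for Vcam1, and close to the TBI rats for Ocln (-4.00). It was not apart for Icam1 (-1.91) or Cldn5 (-0.69). Over all probes, TBI+Zoloft against TBI had 239 calls with it and 1 without it, and the F test among the drugs had 551 and 271. Its 75th percentile and number of probes above background (16962) lay within the range of the other arrays, and what sets this array apart was not tested.

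Whether the drugs left the 8 genes at other levels than vehicle was asked by each drug against TBI. All arrays of imipramine and Zoloft were on another slide than the TBI arrays, and of the Prozac arrays only replicate 1 shared theirs. A drug difference from TBI can thus be told apart from a slide difference only through that array. None of the 8 genes passed in TBI+Imipramine, beside 2.85% of all probes, in TBI+Prozac, beside 0.00577%, or in TBI+Zoloft, beside 1.38%. At an unadjusted p under 0.05, 1 gene passed in each: Ocln for imipramine and Prozac, beside 19.7% and 10.1% of all probes, and Pecam1 for Zoloft, beside 15.2%. The difference of Pecam1 was 0.63 with Zoloft replicate 3 and 0.26 without it, where it no longer had an unadjusted p under 0.05. The F test among the 3 drugs called none of the 8 (lowest adjusted p 0.28, for Cldn5, beside 3.18% of all probes), and 0 of the 8 at an unadjusted p under 0.05, beside 22.5% of all probes. Against Sham, 2 of 8 passed in TBI+Imipramine, beside 23.4% of all probes, 2 in TBI+Prozac, beside 14.9%, and 2 in TBI+Zoloft, beside 5.95%: Cldn5 and Icam1 with imipramine and Prozac, and Pecam1 and Icam1 with Zoloft. A p that misses the threshold with 3 rats a group does not show equal levels: the intervals of the drug differences reached, for Vegfa, from -1.10 to 1.72.

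**Figure D3:**
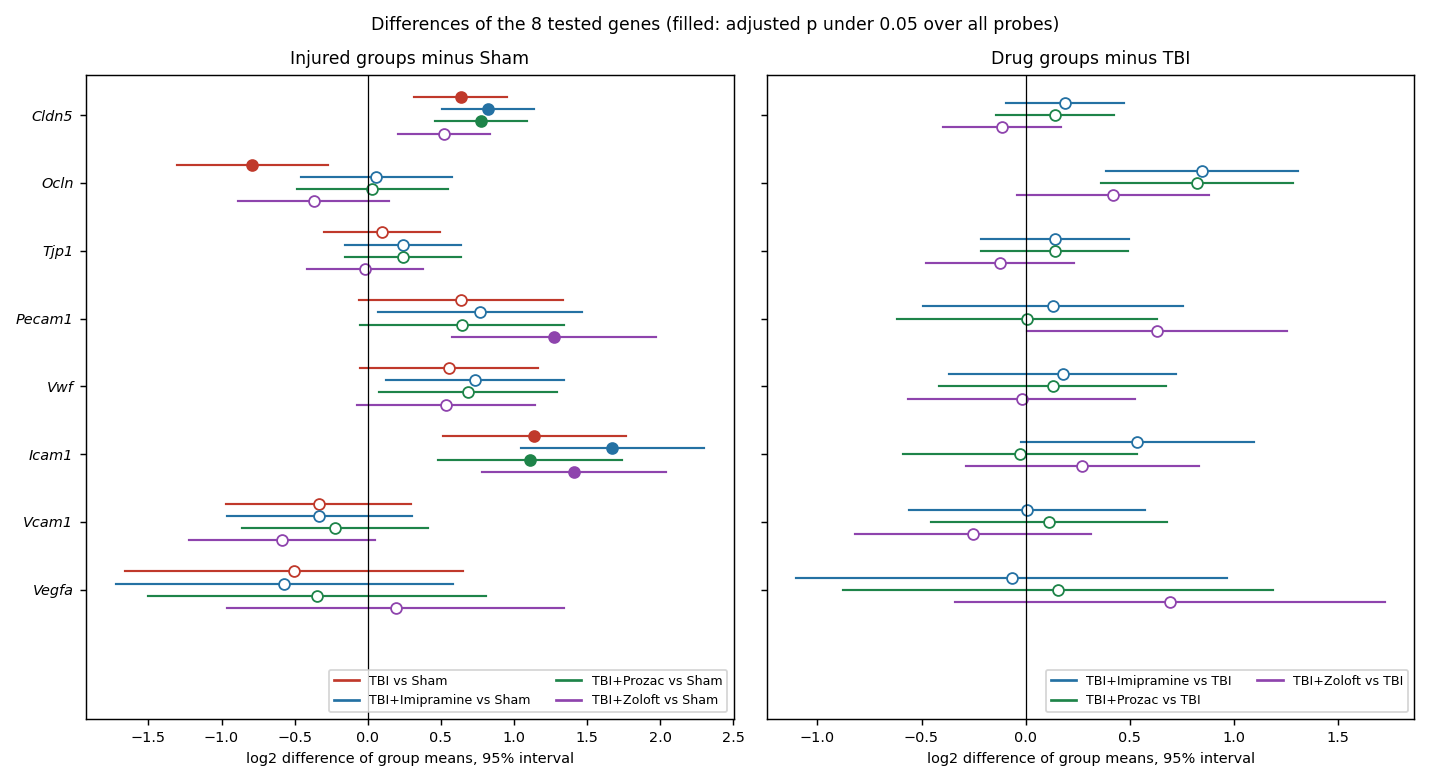
Difference of group means (x axis, log2) for the 8 tested genes (y axis) with unadjusted 95% intervals from limma, injured groups minus Sham on the left and drug groups minus TBI on the right; filled points passed at adjusted p under 0.05 over all probes. Filled points stand for Cldn5, Ocln, Icam1 and Pecam1 on the left, and there is none on the right.

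The other genes of the same pathways, listed by role with earlier results of these data known, showed the clearest shift among leukocyte adhesion genes. Of 13 genes of leukocyte adhesion and transmigration 7 could be tested. Their median difference in TBI against Sham was 0.91, beside 0.0015 over all probes. Of these 7 genes 6 passed as higher: Cd44, Itgam, Cd99, Ezr, Itgb2 and, with a limit given next, Msn. Of all probes 8.3% passed as higher and 8.32% as lower. Msn, the gene of moesin, which anchors ICAM-1 and VCAM-1 to actin, was not above background in Sham and rose at least 3.83-fold. It is counted among the 6 and in the median, but it passed the filter on dim probes only through injured groups. Its test was fitted to Sham signals that were not above background, so no p is given. Cd44, the hyaluronan receptor, rose by 2.77 (adjusted p = 0.00020), Itgam, the alpha chain of the integrin Mac-1 that binds ICAM-1, by 1.05 (adjusted p = 0.025), and Cd99, which guides leukocytes through junctions, by 0.91 (adjusted p = 0.0050). Sele, Itgal, Itga4 and Madcam1 were too dim to be tested. When an array was left out 3 to 6 genes of this list passed, Msn included, the fewest without Sham replicate 1. Cd44 and Cd99 passed every time, as did Msn with the limit given above. Itgam was lost without Sham replicate 1, TBI replicate 1 or TBI replicate 2 (0.76, 0.97 and 0.95). Against TBI none of the 7 passed with any drug. Among the drugs Msn differed (F test, adjusted p = 0.044), with group means of -3.67 with imipramine, -4.22 with Prozac and -4.76 with Zoloft.

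Of 14 further genes of tight and adherens junctions described here 11 could be tested, with a median difference of -0.16 in TBI against Sham. None of these 11 passed in limma's test, and 1 (Afdn) had an unadjusted p under 0.05, beside 30.8% of all probes. The differences ranged from -0.50 for Afdn, the gene of the junction scaffold afadin (adjusted p = 0.061), to 0.53 for Esam, an adhesion molecule of endothelial contacts (adjusted p = 0.17). Cdh5, the cadherin of endothelial adherens junctions, differed by -0.25 (adjusted p = 0.55). Ctnnb1, the gene of beta-catenin, differed among the drugs (F test, adjusted p = 0.027), with group means of -0.68 with imipramine, -0.65 with Prozac and -1.25 with Zoloft, and did not pass in any drug against TBI. The order of these means was the same as that of the second Tjp1 probe, with Zoloft lowest. Whether the F test calls of Ctnnb1 and Msn held without Zoloft replicate 3 was not tested.

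Of 14 genes of blood-brain barrier transport 12 could be tested, and the median difference in TBI against Sham was 0.04. Of these 12 genes 2 passed as higher, beside 8.3% of all probes, and 1 as lower, beside 8.32%. Slc16a1, the monocarboxylate transporter MCT1, rose by 0.91 (adjusted p = 0.010) and Slc7a5, the large neutral amino acid transporter LAT1, by 0.62 (adjusted p = 0.041). Abcg2, the efflux pump BCRP, fell by 2.00 (SE 0.44, adjusted p = 0.0099) and was above background in 2 of the 3 TBI rats. Its mean was -2.29 in Sham, -4.29 in TBI, and -3.44, -3.20 and -3.94 with imipramine, Prozac and Zoloft, and it was not called in any drug against TBI. The calls of Slc16a1 and Abcg2 were lost without Sham replicate 1 (highest adjusted p 0.084 and 0.092), and that of Slc7a5 was lost whichever array was left out (0.45 to 0.80).

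Of 18 genes of VEGF and angiopoietin signalling 11 could be tested. Their median difference in TBI against Sham was 0.46, and 8 of the 11 differences were positive. None passed as higher, beside 8.3% of all probes, and 1 passed as lower, beside 8.32%. The gene that fell was Flt4, the receptor of VEGF-C, by 0.78 (SE 0.21, adjusted p = 0.027), a call that passed in 1 of the 5 fits that left out an array, the one without TBI replicate 3. Tek, the receptor of the angiopoietins, and Angpt1 were too dim to be tested. The receptors Kdr and Flt1 differed by 0.40 and 0.60 and did not pass (adjusted p = 0.41 and 0.35). The mean levels of Angptl4 and Adm were -2.24 and -4.46 in Sham and -0.36 and -2.85 in TBI, and neither difference passed. No gene of this list or of the transport list passed in a drug against TBI.

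**Figure D4:**
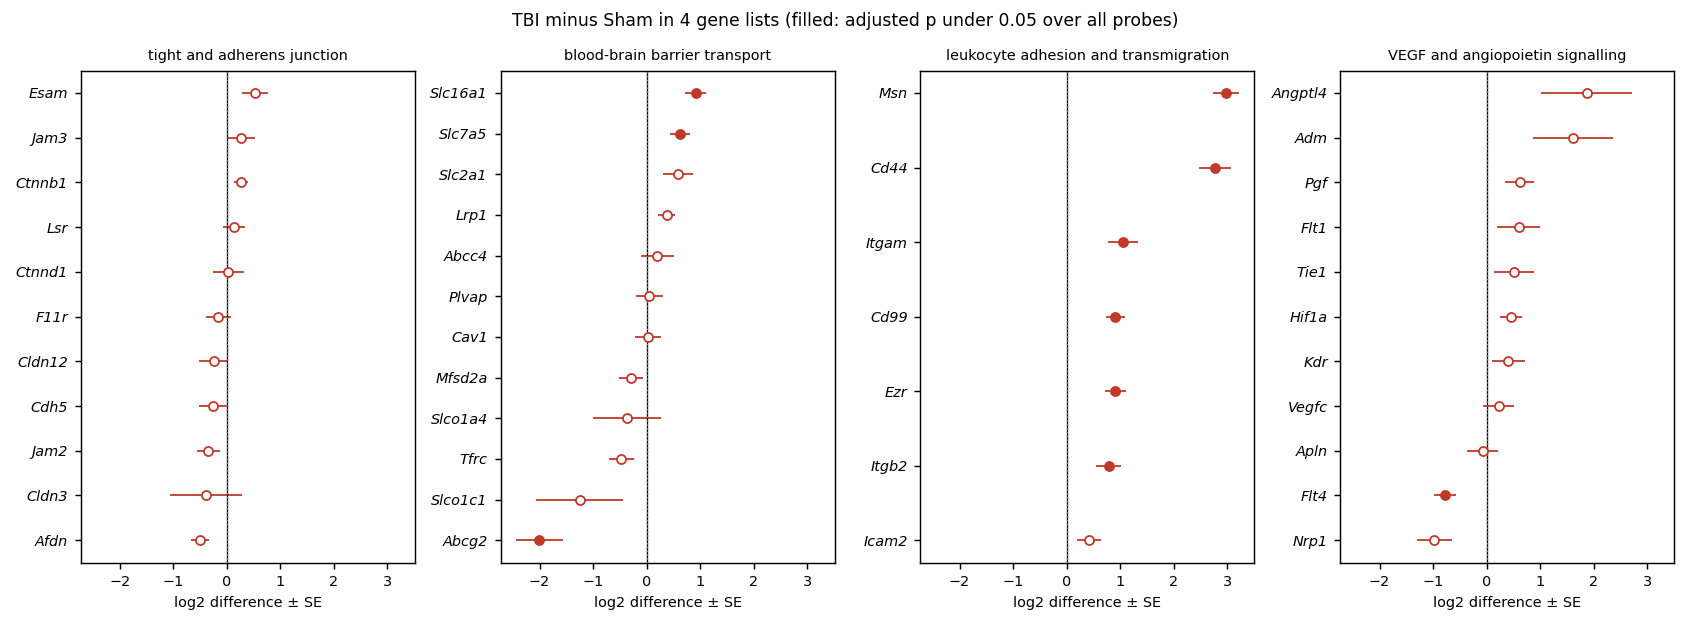
Difference of TBI from Sham (x axis, log2 with its SE) for the tested genes of 4 pathway lists (y axis); filled points passed at adjusted p under 0.05 over all probes, and the dotted line is the median of all probes. In the leukocyte adhesion list 6 of 7 points are filled, all to the right of 0; the value of Msn is fitted to Sham signals that were not above background.

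Summed levels of markers of other cells, taken over each list on the linear scale relative to the array's 75th percentile, differed between the same groups for some lists. Beside the calls of single markers, 8.3% of all probes passed as higher and 8.32% as lower in TBI against Sham. The 8 microglia and macrophage markers summed to 3.24 to 4.06 in Sham and to 4.98 to 5.61 in TBI, and most of that sum was Aif1 (mean levels 1.30 and 2.00, adjusted p = 0.070). Of these 8 genes Cd68 and Itgam passed as higher, and 2 had lower means in TBI, Tmem119 (-0.72, adjusted p = 0.28) and P2ry12 (-0.12, adjusted p = 0.90). The 9 pericyte and smooth muscle markers summed to 1.97 to 2.12 in Sham and 2.67 to 4.39 in TBI, but only Tagln, a contractile gene of smooth muscle, passed (2.55, adjusted p = 0.0011). The median difference of these 9 genes was 0.10, 5 were positive, and the negative ones were Acta2, Pdgfrb, Vtn and Cspg4 (-0.64 to -0.14). The 5 fibroblast and meninges markers summed to 0.630 to 0.701 in Sham and 0.979 to 2.12 in TBI, all 5 differences were positive (median 0.87) and none passed. The 8 hippocampal neuron markers summed to 12.5 to 13.7 in Sham and 11.1 to 12.4 in TBI, and none of the 7 tested passed (median -0.10). Of the blood and neutrophil markers S100a8 and S100a9, genes of neutrophils and monocytes, rose, and S100a8 was above background on 1 of the 2 Sham arrays. The sum of 5 genes overlapped (30.5 to 41.2 and 28.2 to 33.8), and most of it was the hemoglobin genes Hba-a1 and Hbb (mean levels 4.56 and 3.55 in Sham). The sum of 6 astrocyte markers overlapped too (24.3 to 28.1 and 20.3 to 32.6). Of these 6 genes 1 passed as higher, and the mean level of Gfap was 0.78 in Sham and 2.65 in TBI. Of the 6 differences 2 were positive, and the median was -0.15. The sum of 12 endothelial markers overlapped (0.538 to 0.645 in Sham and 0.624 to 0.849 in TBI): of 9 that could be tested only Eng, a co-receptor of the TGF-beta family, passed (1.098, adjusted p = 0.027), and its call was lost without Sham replicate 1 or TBI replicate 2 (0.82 to 1.38 over the fits that left out an array). The 6 platelet markers summed to 1.11 to 1.15 in Sham and 1.17 to 1.39 in TBI. Of these 2 could be tested and neither passed, and Ppbp, Gp9, Gp1ba and Treml1 were too dim. Most of the platelet sum was Gp1bb, whose log2 levels overlapped (0.007 to 0.090 in Sham and -0.028 to 0.322 in TBI). The choroid plexus sum ranged from 0.607 to 29.3 in the 2 Sham rats and from 0.219 to 106 over the injured rats. The part of these cells in the differences of Icam1, Pecam1, Vwf, Ocln and the leukocyte adhesion genes was not tested.

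For each tested gene the 3 named genes with the most similar levels over the 14 arrays, among 10194 genes, were taken by Pearson's r as a description. The points share groups and slides: 12 of the 14 arrays are of injured rats, and the slides follow the groups. Closest to Icam1 were Ccdc102a (r = 0.98), A3galt2 and Ncf4, a subunit of the phagocyte NADPH oxidase (both 0.97). Closest to Cldn5 were Mks1, Myo7a and Sipa1 (0.94 to 0.95), to Ocln Lgals8, Herpud1 and Lztfl1 (0.85 to 0.90), to Tjp1 Dnajc8, Tnks2 and Smarcb1 (0.94 to 0.96), and to Vwf Reep4, Ptgr1 and Cald1 (0.90 to 0.93). Closest to Pecam1 were Gch1, Spsb1 and Tsku, to Vcam1 Nim1k, Shroom2 and Cdh9, and to Vegfa Kdm6b, Klf9 and Smap2 (0.93 to 0.97), and without Zoloft replicate 3 these lay between 0.76 and 0.91.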

How the data were processed

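Gene expression was measured in the hippocampus of 14 rats, each on 1 single-colour Agilent array, and the 14 miRNA arrays of the series were not used here. Each array's deposited file gives the linear intensity of every spot, with flags of another kind (0 or 1) for spots well above background and for outliers. Feature Extraction, the Agilent software used by the authors, had subtracted background and spatial trend, as its headers state. Processed intensity values that the authors put in the series table served as an alternative. Groups and replicate numbers came from the sample titles.

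Outlier spots were dropped, spots of a probe averaged, and a probe was called above background where over 0.5 of its spots were flagged so. Signals were divided by each array's 75th percentile of probes above background and log2 was taken. A probe was kept where all arrays of some group had it above background (17322 of 30367). Names came from RefSeq accessions (GRCr8), which matched 18643 probes. A gene was represented by its probe with the highest mean level, and its other probes are described beside it. One limma fit (3.58.1, R 4.3.3) held all 14 arrays and 5 groups, with two-sided tests and Benjamini-Hochberg adjustment over all kept probes. The F test used the contrasts among the 3 drugs. On simulated data the fit was tested before use. The number of arrays limits the precision.

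A fold given as "at least" set the brighter group's mean against the higher, on each array, of the dim probe's own signal and the lowest signal among probes above background. From each gene list, up to 4 genes were named that passed in TBI against Sham with groups that did not overlap, by size. Values of other genes were named after they were seen. The members, gene lists and motifs were chosen with earlier results of these data known. Of the pathway lists 2 genes are not reported here, and list counts and medians leave them out. The alternatives were normexp background correction, quantile, median and other percentile scaling, no or a stricter filter, outlier spots kept, the series table, slide and replicate number as blocks, the methods' t-test, a fit of only the groups compared, the mean of a gene's probes, and leaving out each array. The files have no mean signal column, so normexp was run on the median signals with an offset of 50. No probe was saturated on any array.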

Additional observations from a re-analysis of the deposited data

How the results depend on the processing

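Icam1 and Cldn5 kept their direction against Sham under every alternative run, and the calls of single genes did not all hold. In TBI against Sham 3 genes passed, but 1 did with normexp background correction, 1 with only the groups compared, 0 with the methods' t-test after Benjamini-Hochberg, and 0 to 2 when an array was left out (0 without Sham replicate 1 and 1 without TBI replicate 2). Over all probes that comparison had 2879 calls, from 0 with that t-test, 1268 without Sham replicate 1 and 1540 with only the groups compared to 4446 with the 75th percentile of all probes. With normexp the differences of Cldn5 and Ocln were 0.37 and -0.47 (adjusted p = 0.11 and 0.070). Vegfa in TBI against Sham turned from -0.50 to 0.13 with the mean of its kept probes. That mean includes the third probe, which was above background on none of the Sham arrays, so no change of direction is read from it. Tjp1 ranged from -0.025 (without Sham replicate 1) to 0.27 when an array was left out, and was -0.00029 without TBI replicate 3. Over all probes TBI+Imipramine against TBI had 494 calls, but 51 to 58 with median, quantile or all-probe percentile scaling or the series table, 2 with slide as a fixed and 1019 as a random block, 27 with that t-test, 35 without TBI replicate 1, and 19 and 13 without imipramine replicates 1 and 2. In TBI+Imipramine against TBI 0 genes passed and 1 (Ocln) did with the filter of above background on all arrays, with slide as a random block and with the methods' t-test without adjustment. The random block had a negative estimated correlation within slides (-0.0585). With slide as a fixed block Ocln did not pass (limma, adjusted p = 0.78). In TBI+Prozac against TBI 0 passed and 1 (Ocln) did with that t-test without adjustment. In TBI+Imipramine against Sham 2 passed, 1 with the t-test after adjustment and 2 to 3 when an array was left out. In TBI+Prozac against Sham 2 passed, 1 without the filter on dim probes, 1 with the t-test without adjustment, 0 with it after adjustment, 1 with only the groups compared, and 1 to 2 when an array was left out. In TBI+Zoloft against Sham 2 passed, 1 without the filter, 0 with the t-test after adjustment, 0 with only the groups compared, and 0 to 2 when an array was left out. The causes of these changes were not tested. The t-test was not run for the F test among the drugs, nor the fixed slide block where Sham was compared.

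Same-numbered rats of different groups did not deviate together (r from -0.23 to 0.23, over 0.1 in 2 of 26 pairs, and 3 of 14 arrays were closest to their own number), so the numbers only name rats. With the replicate number as a block Ocln differed by -0.69 in TBI against Sham (adjusted p = 0.066), 2 genes passed in that comparison, and 1 passed in TBI+Zoloft against Sham. Groups of 2 or 3 arrays, and Sham above all, limit what could be called.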
